A study of Homo sapiens with 42 samples.

Results

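MLN4924 was compared directly with daunorubicin in A375 cells that had been depleted of p53 by siRNA. The comparison rests on 6 of the 42 arrays of the series, 3 of p53 siRNA cells with MLN4924 and 3 of p53 siRNA cells with daunorubicin, chosen by their sample titles. A375 is a human melanoma cell line with an activated BRAF oncogene. The cells were transfected with siRNA for 48 hours, and about 27000 of them were then exposed to a drug for 26 hours before total RNA was taken. MLN4924 was given at 650 nM and daunorubicin at 100 nM, so each drug was measured at a single dose and time. Further arrays of p53 siRNA cells with 0.065% DMSO, the vehicle, came in a first and a second set of 3 each, and the labels tie neither set to a drug. GL2 siRNA cells, which received a control siRNA against firefly luciferase, were measured with the same drugs, 3 arrays each, and with DMSO in the same manner. All are samples of 1 cell line, and the labels do not say that the arrays of a group came from separate cultures, so the p-values reflect only how these samples varied, and that variation may be technical. The number of arrays limits the precision.

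MLN4924 blocks the NEDD8-activating enzyme, a heterodimer of NAE1 and UBA3. Without NEDD8 on their cullins, the cullin-RING ubiquitin ligases lose activity and their substrates are no longer marked for the proteasome. Known substrates include NRF2, held by KEAP1 and CUL3, the hypoxia-inducible factors, held by VHL and CUL2, ATF4, MYC, the kinase inhibitor p27 and the replication licensing factor CDT1. Daunorubicin is an anthracycline that intercalates into DNA and poisons topoisomerase II, which leaves DNA breaks. p53 normally answers such breaks with CDKN1A (p21) and, through it, with repression of cell cycle genes. With p53 depleted, the comparison sets both drugs side by side where this arm is weakened.

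Values are log2 array signals, each array centred on its median gene, and a difference is given as MLN4924 minus daunorubicin with the standard error of a limma fit of all 14 groups. A gene counts as called where its Benjamini-Hochberg adjusted p over all 19775 genes lay under 0.05 and its change was at least 1.5-fold. Known p53 targets were lower in p53 siRNA cells than in GL2 siRNA cells: CDKN1A had 7.73, 7.14 and 7.89 with MLN4924 and 10.04, 9.88 and 10.04 with daunorubicin, where GL2 siRNA cells had 11.74, 11.67 and 11.70 with MLN4924 and 11.94, 12.01 and 11.74 with daunorubicin. DMSO arrays had 6.48 to 7.57 in p53 siRNA cells and 9.01 to 9.25 in GL2 siRNA cells. MDM2, the ubiquitin ligase that degrades p53, likewise lay at 9.92 to 10.33 with MLN4924 in p53 siRNA cells and at 11.86 to 12.21 in GL2 siRNA cells. Of 19 measured melanocyte lineage genes, 9 exceeded the median signal of the table on every MLN4924 array and 11 on every daunorubicin array, among them MITF, SOX10 and PAX3. The pigment genes PMEL, MLANA and TYRP1 lay at a group mean of 4.53 or lower with both drugs.

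A single daunorubicin array stood apart. On array 1 the 5' signal divided by the 3' signal was 0.0118 for ACTB and 0.0509 for GAPDH, where the other 11 p53 siRNA arrays shown lay at 0.649 to 0.945 and at 0.988 to 1.19. Its median absolute log2 difference from daunorubicin arrays 2 and 3 was 0.601 and 0.614, as large as that between MLN4924 and daunorubicin arrays (0.576 to 0.628), while arrays 2 and 3 differed by 0.244. On array 1, 391 genes lay over 4-fold below both other arrays of the group, against 129 and 133 on arrays 2 and 3. Counts over the gene lists are therefore given with all 6 arrays and again without this array, and single genes also where leaving it out changed a call between the drugs or moved a called difference by over 1.5-fold. A pair of MLN4924 arrays outside the direct comparison had BRCA1 levels against their labels, GL2 array 3 at 4.70 (the others 7.95 and 8.24) and BRCA1 siRNA array 3 at 8.18 (the others 4.93 and 5.28). Counts that use GL2 cells are given without these 2 arrays and daunorubicin array 1 as well, together the 3 doubted arrays.

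**Figure D1:**
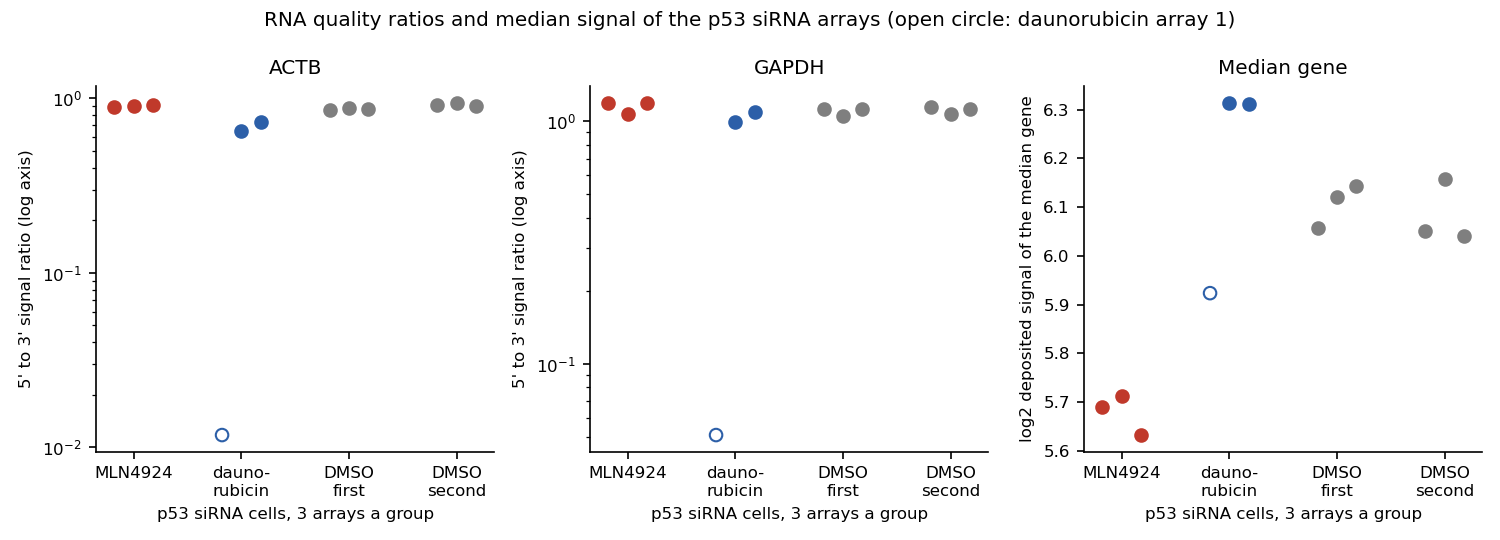
The 5' over 3' ratio of ACTB and GAPDH on log axes and the log2 deposited signal of the median gene, for each p53 siRNA array by treatment. Daunorubicin array 1 (open circle) lies at 0.0118 and 0.0509, and the MLN4924 arrays have the lowest median genes, 5.63 to 5.71.

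Scaling bears on every direction. Before centring, the median gene lay at 5.69, 5.71 and 5.63 on the MLN4924 arrays and at 5.92, 6.31 and 6.31 on the daunorubicin arrays, although all arrays share 1 trimmed mean. The median difference of all genes was 0.17 after centring and -0.34 at the deposited scaling, a shift of 0.51. Differences are thus relative to the median gene, and list counts at the deposited scaling stand beside the main ones. At that scaling 5.44% of all genes were called higher with MLN4924 than with daunorubicin and 21.9% lower. For MLN4924 minus DMSO the median of all genes was 0.20 after centring and -0.22 at the deposited scaling.

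The drugs left widely different profiles. Of 19775 genes, 5695 were called (28.8%), 3998 of them higher with MLN4924 (20.2%) and 1697 lower (8.58%). Without daunorubicin array 1 these numbers were 4702 (23.8%) and 1300 (6.57%). At the deposited scaling the split turned round, to 1076 higher (5.44%) and 4338 lower (21.9%), and quantile normalization gave 1905 higher (9.63%) and 2085 lower (10.5%). The arrays of both drugs did not overlap for 4956 genes in the higher direction (25.1%) and 2416 in the lower (12.2%). With and without daunorubicin array 1, 4683 genes were called in the same direction (23.7%), 3516 higher (17.8%) and 1167 lower (5.9%). Of these, 2234 were also called so at the deposited scaling (11.3%), 1067 higher (5.4%) and 1167 lower (5.9%). A fit of these 6 arrays alone called 1675 genes. Of the genes named below, MARK2, OSGIN1, MPDU1, AKT1S1, ALKBH7, EIF5A, UBE2S, PLEC, EHBP1L1, GDF15, SESN2 and NFE2L2 lost their call in it. The same held for NAE1, SLBP, PLK1, TOP2A, CDC25B, CDKN1B, IFIT3, S100B, NFKBIA, EGR1, BAK1, BAX and DUSP5. The DMSO sets differed from each other in 57 genes (0.288%). The drugs may belong to different sets, which the labels do not settle. With the difference between the sets subtracted, 3339 genes were called higher and 1238 lower. H2AC14, GDF15, TOP2A, CDC25B, IL6 and EGR1 lost their call there. Relative to DMSO, 3535 genes were called higher with MLN4924 (17.9%) and 1522 lower (7.7%), and this split turned round as well at the deposited scaling, to 1063 (5.38%) and 3473 (17.6%). With daunorubicin 1296 were called higher than with DMSO (6.55%) and 1483 lower (7.5%). These were 684 (3.46%) and 1455 (7.36%) without array 1 and 1756 (8.88%) and 1151 (5.82%) at the deposited scaling. Counts of gene lists against DMSO are to be read beside these shares.

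**Figure D2:**
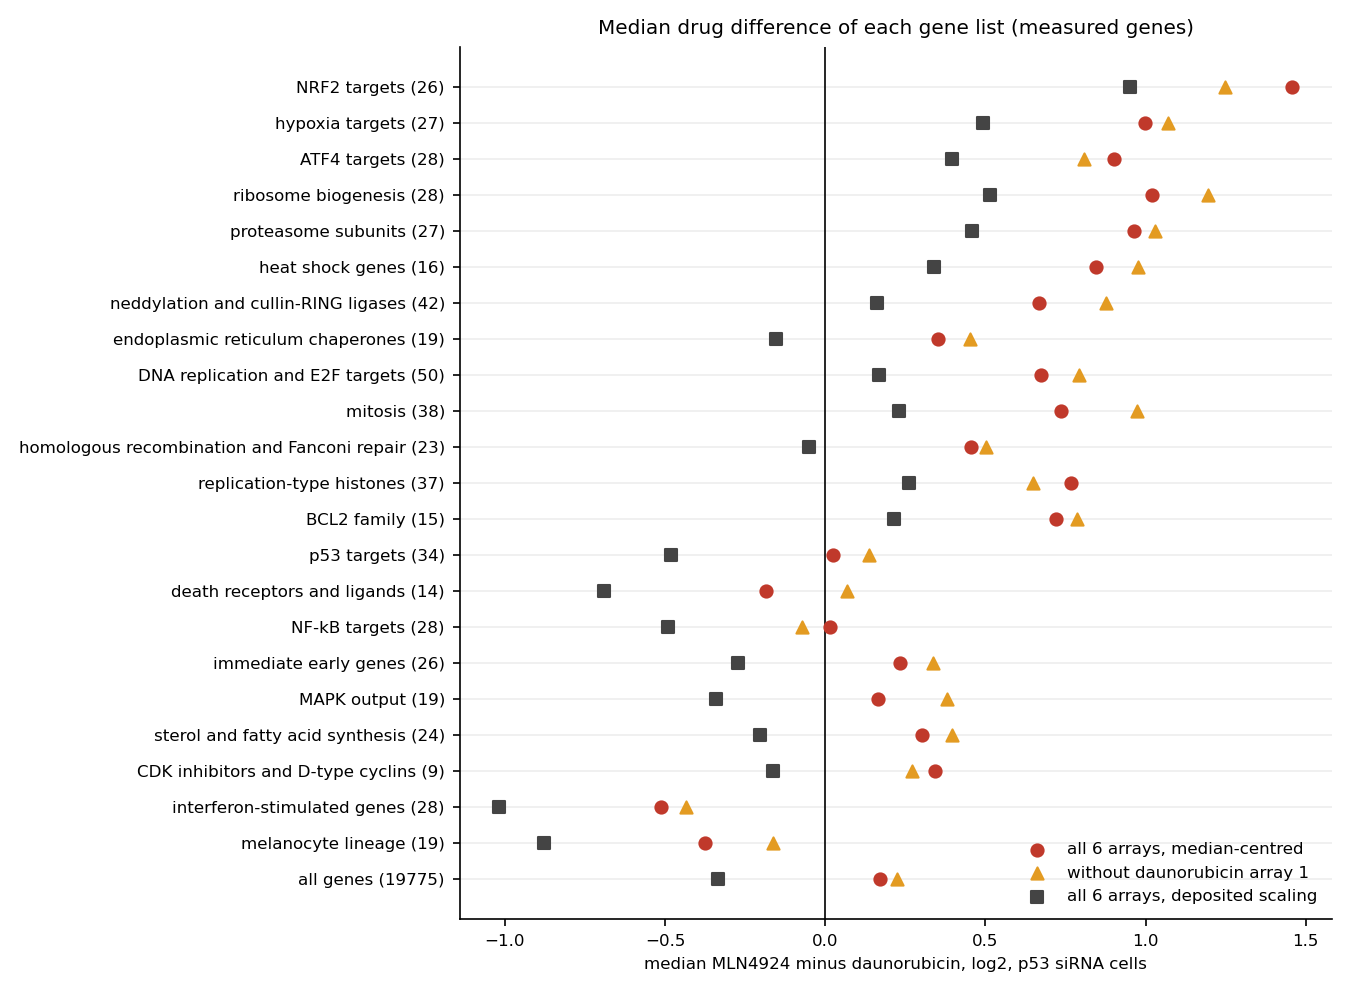
Median MLN4924 minus daunorubicin difference (log2) of 22 gene lists and of all genes, with the number of measured genes in brackets, under 3 settings. NRF2 targets have the highest median under each setting shown, 1.46, 1.25 and 0.95, and interferon-stimulated genes the lowest, -0.51, -0.43 and -1.02.

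Antioxidant genes formed the group with the highest median difference. NRF2 is the transcription factor of the oxidative stress response, and its targets make and recycle glutathione, thioredoxin and NADPH. Of 26 measured targets, 20 rose with MLN4924 relative to daunorubicin and 0 fell (76.9% higher, against 20.2% of all genes), with a median of 1.46. Without daunorubicin array 1, 22 rose, with a median of 1.25, and at the deposited scaling 14 rose. The promoter of GCLM, which encodes the modifier subunit of glutamate-cysteine ligase, is shown because it holds a core of the antioxidant response element (TGACNNNGC, either strand; capitals), the motif NRF2 binds. The RefSeq sequence (GRCh38.p14, chr1:93909381-93909680, minus strand) runs from 250 bases before the transcription start to 50 after it.
GCLM promoter: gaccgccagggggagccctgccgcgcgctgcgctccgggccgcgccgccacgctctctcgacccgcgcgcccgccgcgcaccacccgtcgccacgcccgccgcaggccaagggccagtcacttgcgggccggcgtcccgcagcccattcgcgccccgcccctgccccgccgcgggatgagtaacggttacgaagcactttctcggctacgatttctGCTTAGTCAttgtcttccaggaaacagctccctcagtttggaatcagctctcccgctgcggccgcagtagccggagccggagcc
This core was found in the same window of 13.6% of 27305 promoters and of 6 of the 21 list members that had one, a match of letters that shows no binding.

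GCLM stood at 11.96, 11.91 and 12.04 with MLN4924 and at 10.20, 9.47 and 9.44 with daunorubicin, with DMSO arrays at 9.98 to 10.22. The groups did not overlap, and MLN4924 was 4.79-fold higher (2.26 ± 0.14 on the log2 scale, adjusted p 3.2e-13). TRIM16, a tripartite motif protein on the list, had 11.21, 11.11 and 11.22 with MLN4924 against 7.57, 7.96 and 8.43 with daunorubicin, and lay between them with DMSO, at 9.09 to 9.5. It was 9.16-fold higher (3.20 ± 0.15) and differed from DMSO in opposite directions, by 1.86 with MLN4924 and by -1.33 with daunorubicin, both called. SRXN1, the sulfiredoxin that repairs peroxiredoxins, was 6.36-fold higher (11.56, 11.25 and 11.47 with MLN4924, 9.22, 8.60 and 8.45 with daunorubicin). The aldo-keto reductase AKR1B10 was 4.66-fold higher, at 7.93, 8.01 and 8.05 with MLN4924 and at 5.88, 5.78 and 5.67 with daunorubicin. CBR1, a carbonyl reductase that is known to reduce anthracyclines to their alcohols, had 9.49, 9.54 and 9.43 with MLN4924 and 7.57, 7.69 and 7.75 with daunorubicin, 3.52-fold higher. DMSO arrays had CBR1 at 8.20 to 8.84, again between the drugs. HMOX1, haem oxygenase, was 3.07-fold higher (1.62 ± 0.24). These 6 genes kept their call without daunorubicin array 1 and at the deposited scaling.

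NFE2L2, which encodes NRF2 itself, had 10.88, 10.92 and 11.03 with MLN4924 and 10.73, 9.92 and 9.82 with daunorubicin, a difference of 0.79 ± 0.15 that was not called at the deposited scaling (0.28). KEAP1, its cullin adaptor, stood at 9.97, 9.65 and 9.81 with MLN4924 and at 8.0, 8.10 and 8.11 with daunorubicin, 3.34-fold higher under the main scaling, and called at the deposited one as well (1.23). OSGIN1, an oxidative stress-induced growth inhibitor, had the largest difference on the list, at 7.78, 7.81 and 7.66 with MLN4924 and at 1.20, 4.40 and 5.43 with daunorubicin. Daunorubicin array 1 was the lowest by over 3 log2 units, and the difference of 4.07 was 2.84 without it.

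**Figure D3:**
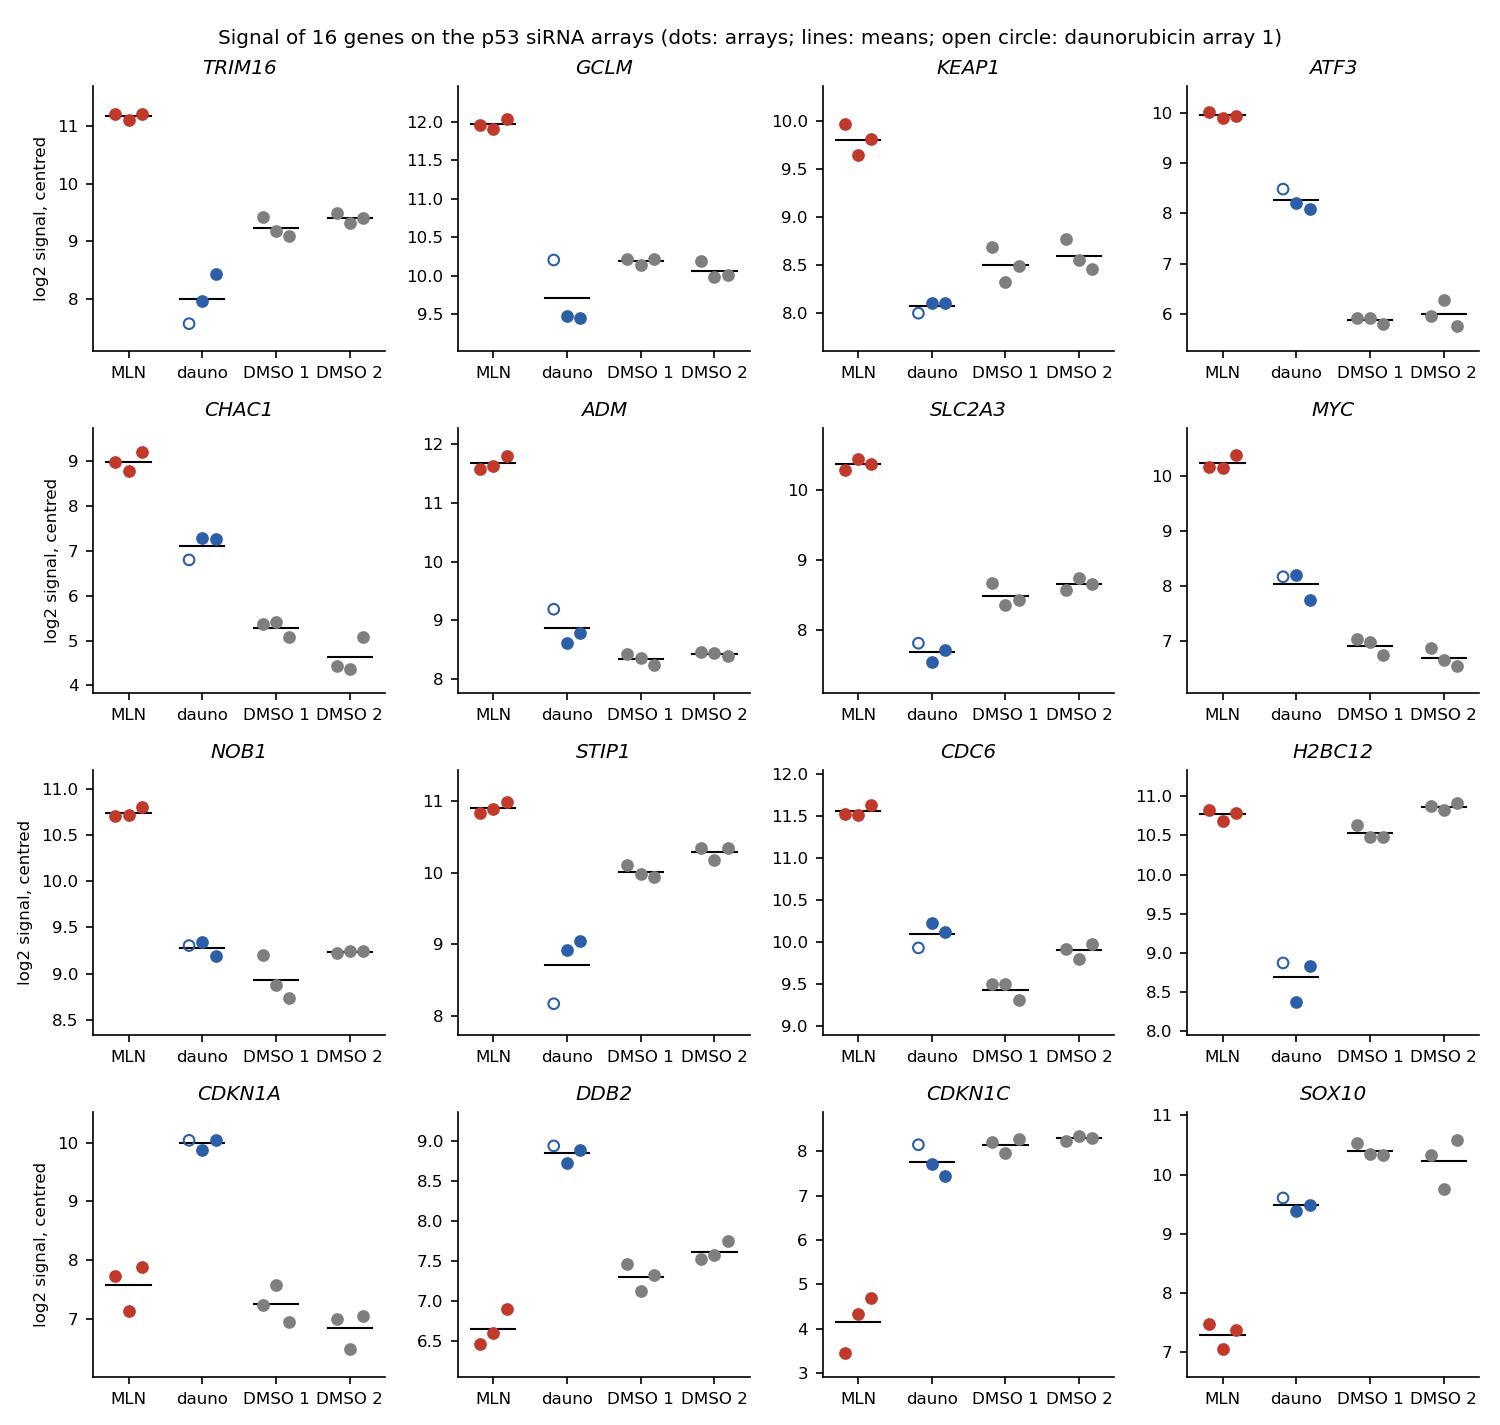
Centred log2 signal of 16 genes on each p53 siRNA array with MLN4924, daunorubicin and both DMSO sets, with group means as lines. Arrays of both drugs lie apart for each gene shown, MLN4924 above daunorubicin for 12 and below it for CDKN1A, DDB2, CDKN1C and SOX10.

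Hypoxia genes rose with MLN4924 relative to daunorubicin in 18 of 27 cases and fell in 2 (66.7% and 7.41%, against 20.2% and 8.58% of all genes), with a median of 1.0. Their factors, HIF1A and EPAS1, are marked by VHL in oxygen and drive glycolysis, glucose uptake and mitophagy when they persist. Without daunorubicin array 1, 20 rose and 1 fell, and at the deposited scaling 11 rose and 2 fell. ADM, the vasodilator peptide adrenomedullin, had 11.58, 11.64 and 11.80 with MLN4924, 9.19, 8.62 and 8.78 with daunorubicin and 8.23 to 8.46 with DMSO. It was 7.03-fold higher than with daunorubicin (2.81 ± 0.13, adjusted p 3.6e-16). SLC2A3, a glucose transporter, was 6.45-fold higher, at 10.29, 10.45 and 10.38 with MLN4924, 7.81, 7.53 and 7.71 with daunorubicin and 8.36 to 8.74 with DMSO. MXI1, an antagonist of MYC, was 3.93-fold higher. The glycolytic enzyme ALDOC had 10.18, 10.01 and 10.08 with MLN4924 and 6.85, 7.89 and 8.01 with daunorubicin, and BNIP3, a receptor for mitophagy, 12.38, 12.38 and 12.52 with MLN4924 and 11.07, 10.36 and 10.29 with daunorubicin. Both were called in each setting named, at 5.70-fold and 3.61-fold higher with all arrays.

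The BNIP3 promoter (GRCh38.p14, chr10:131981874-131982173, minus strand, same window) is shown for the core of the hypoxia response element, ACGTG on either strand, which it holds as the palindrome in capitals.
BNIP3 promoter: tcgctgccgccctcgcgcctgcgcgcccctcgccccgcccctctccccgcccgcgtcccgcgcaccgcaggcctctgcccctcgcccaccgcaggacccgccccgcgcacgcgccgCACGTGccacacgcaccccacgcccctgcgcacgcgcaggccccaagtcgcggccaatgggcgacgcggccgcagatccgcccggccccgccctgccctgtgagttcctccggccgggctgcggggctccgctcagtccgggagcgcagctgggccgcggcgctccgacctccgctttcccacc
ACGTG lay in 21.6% of all promoters and in 13 of 23 of the hypoxia list. The core is part of the E-box CACGTG, so a match cannot name the factor.

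ATF4 targets, the amino acid and stress genes of the integrated stress response, rose in 19 of 28 cases and fell in 2, with a median of 0.90. These shares, 67.9% and 7.14%, compare with 20.2% and 8.58% of all genes. Without daunorubicin array 1 the counts were 20 and 2, and at the deposited scaling 8 and 3. Many members were above DMSO with both drugs: 23 of 28 were called higher and 0 lower with MLN4924 (17.9% and 7.7% of all genes), and 14 higher and 1 lower with daunorubicin (6.55% and 7.5% of all genes). With the deposited scaling these counts were 20 and 1 with MLN4924 and 15 and 1 with daunorubicin, and without array 1 they were 13 and 1 with daunorubicin. ATF3, a stress-induced repressor, had 10.02, 9.90 and 9.93 with MLN4924, 8.48, 8.21 and 8.08 with daunorubicin and 5.77 to 6.27 with DMSO. Both drugs were thus above DMSO, by 4.01 and 2.32, and MLN4924 stood 3.23-fold above daunorubicin. CHAC1, which degrades glutathione, followed the same order, at 8.98, 8.78 and 9.21 with MLN4924, 6.80, 7.29 and 7.26 with daunorubicin and 4.36 to 5.41 with DMSO. Its promoter (GRCh38.p14, chr15:40953221-40953520, plus strand) is shown for a composite site of ATF4 (TGATGNAA, either strand), here on the other strand.
CHAC1 promoter: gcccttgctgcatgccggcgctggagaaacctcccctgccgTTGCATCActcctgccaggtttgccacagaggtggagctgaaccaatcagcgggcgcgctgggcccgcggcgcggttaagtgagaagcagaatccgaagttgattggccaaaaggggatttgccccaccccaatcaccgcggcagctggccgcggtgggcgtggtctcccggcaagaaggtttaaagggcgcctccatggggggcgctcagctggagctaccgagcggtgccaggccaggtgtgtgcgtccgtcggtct
This site was found in 3.67% of promoters and in 7 of 23 of the ATF4 list.

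Further members took part. TRIB3, a pseudokinase, was 3.01-fold higher, and the cystine transporter subunits SLC7A11 and SLC3A2 3.43-fold and 2.38-fold. SLC7A11 had 10.98, 10.81 and 10.95 with MLN4924 and 9.62, 8.90 and 8.90 with daunorubicin. Daunorubicin array 1 lay above the DMSO range (9.11 to 9.31) and arrays 2 and 3 below it, and daunorubicin was not called apart from DMSO (-0.08). DDIT4, an inhibitor of mTORC1, had 11.03, 10.87 and 11.16 with MLN4924, 9.27, 9.73 and 10.17 with daunorubicin and 11.19 to 11.32 with DMSO, and daunorubicin was called below DMSO (-1.53). DDIT3 (CHOP) was high with both drugs, at 9.15, 9.19 and 9.25 with MLN4924 and at 9.77, 9.19 and 9.19 with daunorubicin, against 6.64 to 7.22 with DMSO, and the drugs overlapped (-0.18 ± 0.30, and 0.0072 without array 1). ATF4 itself was 1.86-fold higher with MLN4924, which was not called at the deposited scaling (0.39).

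**Figure D4:**
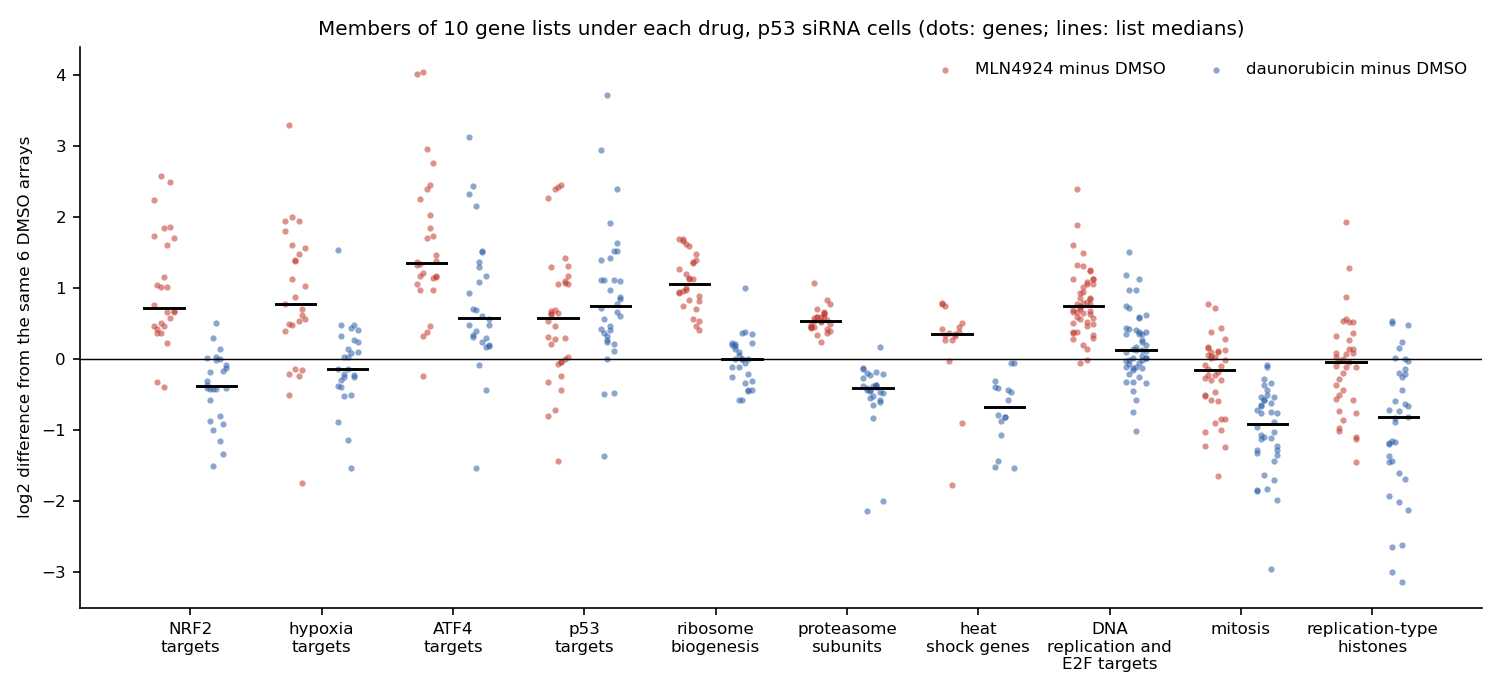
Log2 difference of each drug from the same 6 DMSO arrays for the members of 10 lists in p53 siRNA cells, MLN4924 left of daunorubicin, with list medians as lines. The comparisons share their DMSO arrays. The NRF2 medians are 0.72 and -0.38, those of heat shock genes 0.36 and -0.68 and those of mitosis genes -0.16 and -0.92.

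With centring, 85.7% of ribosome biogenesis genes and 92.6% of proteasome genes were called higher, against 20.2% of all genes. Of 28 ribosome biogenesis genes, 24 rose and 0 fell with a median of 1.02, 27 rose without daunorubicin array 1 and 13 rose at the deposited scaling. Relative to DMSO, 24 were called higher with MLN4924, against 17.9% of all genes, and 14 at the deposited scaling. With daunorubicin 1 was called higher, against 6.55% of all genes, also without array 1 and at the deposited scaling. NOB1, the nuclease that finishes 18S rRNA, had 10.70, 10.72 and 10.80 with MLN4924 and 9.30, 9.34 and 9.19 with daunorubicin, 2.76-fold higher, with DMSO at 8.73 to 9.25. NIP7 was 4.56-fold, the small-subunit factor BYSL 3.47-fold, the rRNA methylase FBL 2.26-fold and NOP2 2.11-fold higher, and of these 4 only NOP2 was not called at the deposited scaling (0.57). MYC, a regulator of this programme and itself a cullin-RING substrate, had 10.17, 10.14 and 10.38 with MLN4924, 8.17, 8.21 and 7.76 with daunorubicin and 6.55 to 7.04 with DMSO. It was 4.54-fold higher with MLN4924 (2.18 ± 0.16, adjusted p 5.8e-12), and each drug was called above DMSO. The BYSL promoter (GRCh38.p14, chr6:41921249-41921548, plus strand) holds the E-box CACGTG that MYC and MAX bind, just after the transcription start.
BYSL promoter: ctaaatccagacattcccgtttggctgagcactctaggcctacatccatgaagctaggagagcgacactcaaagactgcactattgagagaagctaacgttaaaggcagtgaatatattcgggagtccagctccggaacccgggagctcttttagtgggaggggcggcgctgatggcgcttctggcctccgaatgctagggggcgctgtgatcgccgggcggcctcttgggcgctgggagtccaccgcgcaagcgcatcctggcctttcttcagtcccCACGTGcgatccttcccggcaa
The E-box lay in 7.43% of promoters and in 10 of 24 of the ribosome biogenesis list.

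The proteasome degrades what the ubiquitin ligases mark. Of its 27 measured subunits 25 rose and 0 fell, with a median of 0.96 and the lowest member at 0.55. Without daunorubicin array 1, all 27 rose, whereas at the deposited scaling 7 did. The size was moderate: PSMD11 of the lid was 2.59-fold, the catalytic subunit PSMB5 2.36-fold, PSMB7 2.22-fold, PSMD8 2.22-fold and the ATPase PSMC1 1.95-fold higher. PSMC1 was not called at the deposited scaling (0.46). Relative to DMSO, 9 subunits were called higher and 0 lower with MLN4924 (17.9% and 7.7% of all genes). With daunorubicin 0 were higher and 5 lower (6.55% and 7.5% of all genes), or 0 and 9 without array 1. With the deposited scaling these counts were 0 and 0 with MLN4924 and 0 and 3 with daunorubicin. PSMD11 had 11.69, 11.70 and 11.81 with MLN4924, 10.43, 10.26 and 10.40 with daunorubicin and 11.09 to 11.35 with DMSO.

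Heat shock chaperones called between the drugs were higher with MLN4924. Of 16 heat shock genes 13 rose with MLN4924 relative to daunorubicin and 0 fell (14 and 0 without array 1, 5 and 0 at the deposited scaling). The share higher was 81.2%, against 20.2% of all genes. Against DMSO, 2 were called higher and 2 lower with MLN4924 (17.9% and 7.7% of all genes). With daunorubicin 0 were higher and 6 lower (6.55% and 7.5% of all genes), or 0 and 10 without array 1. Without centring, at the deposited scaling, 0 were higher and 2 lower with MLN4924, and 0 higher and 6 lower with daunorubicin. STIP1, which bridges HSP70 and HSP90, had 10.82, 10.89 and 10.99 with MLN4924, 8.17, 8.92 and 9.05 with daunorubicin and 9.93 to 10.35 with DMSO. DNAJB1, a partner of HSP70, had 10.87, 10.81 and 10.98, against 9.14, 9.64 and 9.60 with daunorubicin and 10.31 to 10.75 with DMSO. FKBP4 was 2.15-fold and the mitochondrial chaperonin HSPE1 2.18-fold higher. Of 19 chaperones of the endoplasmic reticulum 6 were called higher and 0 lower (31.6% higher, against 20.2% of all genes), or 8 and 0 without array 1. Without centring 1 was higher and 1 lower, and the median of 0.35 turned to -0.15. Against DMSO these genes had 3 higher and 0 lower with MLN4924 (1 and 2 at the deposited scaling), and 2 higher and 2 lower with daunorubicin (1 and 4 without array 1, 2 and 2 at the deposited scaling). Of these, HSP90B1 was 3.26-fold higher and HSPA5 (BiP) 1.77-fold, and HSPA5 was not called at the deposited scaling (0.31).

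The target pathway of MLN4924 was part of the difference. Of 42 genes of neddylation and cullin-RING ligases 25 rose and 0 fell (30 and 0 without array 1), while at the deposited scaling 4 rose and 4 fell. The share higher was 59.5%, against 20.2% of all genes. At the deposited scaling 5.44% of all genes were higher and 21.9% lower. NEDD8 had 11.49, 11.47 and 11.57 with MLN4924 and 10.77, 10.53 and 10.55 with daunorubicin, 1.86-fold higher. RNF7, the RING partner of CUL5, was 2.01-fold and CUL1 1.93-fold higher. NAE1 was 1.77-fold higher, whereas for UBA3 the arrays overlapped (10.93, 11.21 and 11.05 with MLN4924, 11.36, 10.41 and 10.38 with daunorubicin). UBA3 was called higher without array 1 (0.67), not with all arrays (0.35), and lay below 0 at the deposited scaling (-0.16). None of NEDD8, RNF7, CUL1 and NAE1 was called at the deposited scaling. TOP2A and TOP2B encode the enzymes that daunorubicin poisons. TOP2A was 1.54-fold higher with MLN4924, with overlapping arrays, and was no longer called without MLN4924 array 3 (0.58), daunorubicin array 2 (0.53) or daunorubicin array 3 (0.44). TOP2B was not called with all arrays (0.33) and was called without daunorubicin array 1 (0.64). At the deposited scaling they lay at 0.12 and -0.18.

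Genes of replication and mitosis were higher with MLN4924 than with daunorubicin as well, and stood differently against DMSO. Of 50 genes of DNA replication and E2F targets, 24 rose and 1 fell (35 and 1 without array 1, 5 and 3 at the deposited scaling). That was 48% and 2%, against 20.2% and 8.58% of all genes. Relative to DMSO, 33 were called higher and 0 lower with MLN4924 (17.9% and 7.7% of all genes). At the deposited scaling these counts were 14 and 0. With daunorubicin 8 were called higher and 2 lower (6.55% and 7.5% of all genes). These counts were 5 and 1 without array 1 and 10 and 2 at the deposited scaling. CDC6, which loads the replicative helicase, had 11.53, 11.51 and 11.63 with MLN4924, 9.93, 10.23 and 10.12 with daunorubicin and 9.31 to 9.98 with DMSO, 2.75-fold higher than with daunorubicin. SLBP, the histone mRNA binding protein, was 1.87-fold, and the helicase subunits MCM7 and MCM3 were 3.68-fold and 2.05-fold higher. SLBP (0.40) and MCM3 (0.53) were not called at the deposited scaling. CDT1, which MLN4924 is known to stabilise as a protein, was at 10.29, 10.64 and 10.29 with MLN4924, 10.46, 9.74 and 9.73 with daunorubicin and 8.52 to 9.10 with DMSO. The transcript was thus above DMSO with each drug, by 1.61 and 1.18, and the drugs overlapped (0.43 ± 0.29, adjusted p 0.29; -0.08 at the deposited scaling). CCNE1, a cyclin of the S phase entry, was not called either (0.31, and -0.20 at the deposited scaling).

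Mitotic genes had a median difference from DMSO of -0.16 with MLN4924 and of -0.92 with daunorubicin. Of 38 members, 28 were called higher with MLN4924 than with daunorubicin and 1 lower (33 and 1 without array 1, 7 and 1 at the deposited scaling). These shares, 73.7% and 2.63%, compare with 20.2% and 8.58% of all genes. With the DMSO sets subtracted 17 were higher and 0 lower. Against DMSO, 2 were higher and 8 lower with MLN4924 (17.9% and 7.7% of all genes). At the deposited scaling these counts were 0 and 19 (5.38% and 17.6% of all genes). With daunorubicin 0 were higher and 27 lower (6.55% and 7.5% of all genes). These counts were 0 and 33 without array 1 and 0 and 24 at the deposited scaling. CDC20, the activator of the anaphase-promoting complex, had 10.43, 10.23 and 10.53 with MLN4924, 8.61, 8.90 and 8.89 with daunorubicin and 10.51 to 10.76 with DMSO. The mitotic kinase PLK1 was below DMSO (8.96 to 9.19) with both drugs, at 7.45, 7.55 and 7.30 with MLN4924 and at 5.32, 6.54 and 6.54 with daunorubicin. CCNA2 and the ubiquitin-conjugating enzyme UBE2C were 2.50-fold and 2.40-fold higher with MLN4924. The exception was the phosphatase CDC25B, 1.73-fold lower with MLN4924, which was not called with the DMSO sets subtracted. Of 23 genes of homologous recombination and Fanconi repair, 6 were called higher and 0 lower (26.1% higher, near the 20.2% of all genes), or 8 and 0 without array 1 and 0 and 1 at the deposited scaling. With the DMSO sets subtracted the repair list had 1 higher and 0 lower.

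Replication-type histones lie in part below the reach of these arrays, since 26 of 37 had a mean over the 6 arrays under the median signal of the table. Of the 37, 11 were called higher and 1 lower (29.7% higher, against 20.2% of all genes; 8 and 2 without array 1, 8 and 3 at the deposited scaling). H2BC12, a bright member, had 10.83, 10.68 and 10.79 with MLN4924, 8.87, 8.37 and 8.83 with daunorubicin and 10.48 to 10.91 with DMSO. It was 4.22-fold higher (2.08 ± 0.12, adjusted p 1.5e-13), with daunorubicin alone called apart from DMSO (-2.01). H2BC6 had 7.12, 7.24 and 7.09 with MLN4924 against 5.35, 5.78 and 6.28 with daunorubicin. H2BC9 and H3C3, both dim with daunorubicin, differed by 2.62 and 3.29, and without array 1 by 2.03 and 3.49.

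Direct targets of p53 made a divided group. Of 34 measured targets, 5 were called higher with MLN4924 and 10 lower (14.7% and 29.4%, against 20.2% and 8.58% of all genes). These numbers were 10 and 9 without array 1 and 2 and 14 at the deposited scaling, and the median of 0.02 was -0.48 there. Relative to DMSO, 16 were called higher and 3 lower with MLN4924 (17.9% and 7.7% of all genes). With daunorubicin 20 were called higher than with DMSO and 1 lower (6.55% and 7.5% of all genes), or 16 and 1 without array 1. At the deposited scaling these counts were 12 and 4 with MLN4924 and 21 and 1 with daunorubicin. CDKN1A, at the levels given above, was 5.28-fold lower with MLN4924 (-2.40 ± 0.17, adjusted p 2.9e-12). MLN4924 arrays overlapped the DMSO range (6.48 to 7.57), and daunorubicin differed from DMSO by 2.94. DDB2, a sensor of ultraviolet damage, had 6.47, 6.59 and 6.90 with MLN4924 and 8.94, 8.72 and 8.88 with daunorubicin, on either side of DMSO (7.12 to 7.75). TP53INP1, a stress protein, was likewise apart in opposite directions, at 3.50, 3.87 and 4.89 with MLN4924, 7.14, 6.77 and 6.91 with daunorubicin and 5.10 to 5.70 with DMSO. The smooth muscle actin ACTA2 was 4.25-fold lower (5.67, 6.04 and 6.08 with MLN4924, 8.06, 7.79 and 8.22 with daunorubicin), and the quinone oxidoreductase TP53I3 1.99-fold lower.

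Other members of that list named here, except BAX, had a mean above DMSO with both drugs. The cytokine GDF15 stood at 6.75, 6.99 and 7.66 with MLN4924, 7.75, 8.56 and 9.05 with daunorubicin and 4.16 to 5.08 with DMSO, 2.50-fold lower with MLN4924. Its call between the drugs was lost with the DMSO sets subtracted. PMAIP1 (NOXA), a BH3-only death protein, went the other way, at 11.31, 11.15 and 11.25 with MLN4924, 10.28, 10.18 and 9.81 with daunorubicin and 8.86 to 9.10 with DMSO, 2.21-fold higher. SESN2, a stress protein shared with the ATF4 list, was 1.90-fold higher, which was not called at the deposited scaling (0.42). MDM2 was not called (0.11 ± 0.16), with overlapping arrays, and lay at -0.40 at the deposited scaling. Its other probe sets lay between -2.24 and 0.80. BAX was 4.0-fold higher with all arrays, and differed from DMSO by 0.63 with MLN4924 and by -1.37 with daunorubicin. Daunorubicin array 1 had 5.03 against 7.32 and 8.29 on the others, and the drug difference was 1.08 without that array.

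Kinase inhibitors and other cycle brakes did not share a direction. CDKN1C (p57) was lower with MLN4924, at 3.45, 4.34 and 4.69, than with daunorubicin, at 8.14, 7.71 and 7.43, and DMSO arrays had 7.97 to 8.34. Daunorubicin thus left it near DMSO, and the difference of -3.60 ± 0.25 was called with centring, at the deposited scaling and with quantile normalization. CDKN1B, which encodes the cullin-RING substrate p27, was 1.73-fold higher with MLN4924, called under the main scaling and not at the deposited one (0.28). Of the 9 genes of this list, 2 rose and 2 fell (22.2% each, against 20.2% higher and 8.58% lower of all genes), with 2 and 2 without array 1 and 1 and 2 at the deposited scaling.

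Among death genes, 8 of 15 BCL2 family members rose and 0 fell (8 and 0 without array 1, 3 and 1 at the deposited scaling). The share higher was 53.3%, against 20.2% of all genes. BCL2L11 (BIM) had 8.26, 8.39 and 8.33 with MLN4924 and 7.50, 7.47 and 6.90 with daunorubicin, 2.06-fold higher, and BAK1 was 2.52-fold higher. The death receptor adaptor FADD was 2.06-fold higher, and neither it nor BCL2L11 was called at the deposited scaling. FAS was above DMSO (6.69 to 7.08) with each drug, at 8.11, 7.95 and 8.01 with MLN4924 and at 8.96, 8.28 and 8.41 with daunorubicin, and the drug difference was not called with all arrays (-0.53). It was called without daunorubicin array 2 (-0.66) or array 3 (-0.60). Of 14 death receptor genes 2 rose and 1 fell (1 and 1 without array 1). These shares, 14.3% and 7.14%, lay near the 20.2% and 8.58% of all genes, and at the deposited scaling 0 rose and 6 fell.

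Inflammatory and signalling genes held calls in both directions. Of 28 NF-kB targets 6 rose and 5 fell (21.4% and 17.9%, against 20.2% and 8.58% of all genes), with 8 and 5 without array 1. Without centring 6 rose and 11 fell, and the median of 0.01 was -0.49. The cytokine IL1A was lower with MLN4924 (2.54, 3.43 and 3.96) than with daunorubicin (6.24, 5.70 and 6.17), on either side of DMSO (4.29 to 5.03). IL6 was above DMSO (4.0 to 5.03) with each drug and 2.87-fold lower with MLN4924, at 5.73, 6.36 and 6.09, than with daunorubicin, at 7.77, 7.62 and 7.35. The drug difference of IL6 was not called with the DMSO sets subtracted. NFKBIA, the inhibitor of NF-kB, rose instead, at 6.82, 6.20 and 6.64 with MLN4924 against 4.30, 2.63 and 5.55 with daunorubicin. NFKBIA was not called in the fit of the 6 arrays alone. TNIP1, another inhibitor, was 2.16-fold higher. Of 26 immediate early genes 9 rose and 5 fell (34.6% and 19.2%, against 20.2% and 8.58% of all genes). Without array 1 these counts were 10 and 5, and at the deposited scaling 7 and 8. The median of 0.23 turned to -0.27 at the deposited scaling. CCN1 and CCN2, matricellular targets of YAP, were 3.79-fold and 4.71-fold higher with MLN4924. CCN1 had 12.08, 12.02 and 12.14 with MLN4924, 10.51, 10.02 and 9.94 with daunorubicin and 9.57 to 10.07 with DMSO. JUN was 2.07-fold higher, which was not called at the deposited scaling (0.54) or with quantile normalization. The zinc finger factors EGR1 and EGR3 were 2.04-fold and 6.15-fold lower. Other probe sets of EGR1 lay at 0.255 and -0.73. EGR1 was not called in the fit of the 6 arrays alone or with the DMSO sets subtracted. EGR3 lay at 4.50, 5.72 and 5.48 with MLN4924, below DMSO (6.51 to 7.12), and at 8.45, 7.58 and 7.53 with daunorubicin, above it. FOSL1 and DUSP5, outputs of the MAPK pathway that BRAF drives in this line, were 2.18-fold and 1.80-fold higher. Neither was called with quantile normalization, and DUSP5 was not called at the deposited scaling (0.34) or in the fit of the 6 arrays alone. Of the 19 genes of that list 5 rose and 3 fell (26.3% and 15.8%, against 20.2% and 8.58% of all genes), with 5 and 2 without array 1. Without centring the split turned to 2 higher and 8 lower, and the median of 0.16 to -0.34.

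Interferon-stimulated genes fell in 10 of 28 cases and rose in 1 (35.7% lower, against 8.58% of all genes; 10 and 1 without array 1, 15 and 0 at the deposited scaling). IFI44 had 6.41, 6.34 and 6.48 with MLN4924, 8.12, 7.67 and 7.66 with daunorubicin and 7.87 to 8.04 with DMSO. IFIT3 was 2.07-fold and the exonuclease ISG20 2.39-fold lower, and OAS1, a sensor of double-stranded RNA whose MLN4924 arrays were dim, differed by -1.18. Another probe set of IFIT3 lay at -0.01. Relative to DMSO, 12 members were called lower with MLN4924, against 7.7% of all genes. At the deposited scaling 17 members were, against 17.6% of all genes. With daunorubicin 3 members were called lower, against 7.5% of all genes. These were 0 of 28 without array 1 and 2 at the deposited scaling.

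Of 19 melanocyte lineage genes 5 fell and 0 rose (26.3% lower, against 8.58% of all genes; 5 and 1 without array 1, 10 and 0 at the deposited scaling). SOX10, the neural crest factor of this lineage, had 7.47, 7.05 and 7.37 with MLN4924, 9.60, 9.38 and 9.48 with daunorubicin and 9.76 to 10.58 with DMSO, 4.57-fold lower than with daunorubicin. Both drugs were called below DMSO, by 3.02 and by 0.83. The receptor ERBB3 and the calcium-binding protein S100B were 3.29-fold and 3.02-fold lower. The summed signal of the list was 1955 to 2127 with MLN4924, 3220 to 4896 with daunorubicin and 5207 to 7204 with DMSO. In bulk RNA, fewer cells with a transcript and less of it per cell cannot be told apart.

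The largest single differences that held without daunorubicin array 1 included many dim genes. KRTAP3-1, a keratin-associated protein, had 8.22, 7.85 and 7.82 with MLN4924 and 2.40, 3.17 and 2.40 with daunorubicin, and DMSO arrays lay as low (2.43 to 3.03). The kisspeptin precursor KISS1, the cadherin CDH5 and the growth factor BMP4 were among the 12 largest as well, at 3.83 (2.83 without daunorubicin array 1), 3.46 and 3.34, with MLN4924 called above DMSO and daunorubicin not called apart from it. Others were smaller without daunorubicin array 1. MPDU1 had 10.70, 10.67 and 10.84 with MLN4924 and 2.17, 8.92 and 9.40 with daunorubicin, and its difference of 3.91 was 1.58 without that array. EIF5A, ALKBH7, AKT1S1 and UBE2S were smaller too, with 3.73, 3.78, 3.79 and 3.65 with all arrays and 1.51, 1.37, 2.46 and 1.94 without it. The kinase gene MARK2 and the pseudogene PKD1P1 were also among the 12, at 4.09 and 3.39 (3.06 and 3.45 without that array). Their daunorubicin arrays were widely spread, and a transcript of PKD1P1 may share its sequence with PKD1 and other copies.

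In the lower direction the values differed little with array 1 left out, -6.16 against -6.53 for ABCA13 and -4.70 against -5.17 for CEMIP. The hyaluronan-degrading protein CEMIP had 3.64, 1.55 and 4.55 with MLN4924, 9.36, 7.99 and 7.90 with daunorubicin and 7.40 to 8.17 with DMSO. ABCA13, a lipid transporter, was at 0.21, -1.39 and 0.42 with MLN4924, 7.0, 5.75 and 6.07 with daunorubicin and 1.81 to 3.03 with DMSO, so that here daunorubicin stood above DMSO. PMEPA1, a brake of TGF-beta signalling, had 5.45, 5.19 and 5.45 with MLN4924, 9.91, 9.32 and 9.43 with daunorubicin and 7.36 to 8.28 with DMSO, 18.2-fold lower with MLN4924 than with daunorubicin. The cytoskeletal adaptor SORBS2 differed by -4.18, the neural crest factor FOXD3 by -3.91, the small GTPase RAB7B by -3.87 and SERPINA5 by -3.80, and each was called below DMSO with MLN4924. C16orf54, PDE3A, MAP7, SSUH2 and CCDC69 lay between -4.60 and -3.94.

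The same drug comparison in GL2 siRNA cells, which were not depleted of p53, used other arrays and called 3817 genes higher (19.3%) and 1956 lower (9.89%), or 4151 (21%) and 2151 (10.9%) without the doubted arrays. At the deposited scaling the split turned round here too, to 1755 higher (8.87%) and 4185 lower (21.2%). Of the genes called higher in p53 siRNA cells 60.4% were called higher in GL2 cells, which is 63.2% of the GL2 calls, and in the lower direction the shares were 55.6% and 48.2%. Without the 3 doubted arrays these shares were 64.9% and 74.1% in the higher direction and 65.2% and 40.7% in the lower, and at the deposited scaling 50.1% and 30.7% and 56.8% and 58.9%. In the opposite direction, 30 and 20 genes were called. Across all genes the drug differences in p53 and GL2 siRNA cells had a Pearson correlation of 0.56 (0.59 without the 3 doubted arrays), and genes are not independent replicates. The difference between the siRNAs, tested as an interaction, was called for 1589 genes (8.04%), 787 more positive in p53 siRNA cells (3.98%) and 802 more negative (4.06%). Without daunorubicin array 1 these were 1011 (5.11%) and 567 (2.87%), without all 3 doubted arrays 1112 (5.62%) and 793 (4.01%) and at the deposited scaling 505 (2.55%) and 1443 (7.3%). Without daunorubicin array 3 the count in both directions was 2429. A fit of the 12 arrays alone called 119.

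Many cell cycle genes had a called interaction, against 3.98% more positive and 4.06% more negative among all genes. In p53 siRNA cells the median level of the 50 replication genes was 10.33, 10.21 and 10.31 with MLN4924 and 9.80, 9.60 and 9.43 with daunorubicin, with DMSO at 9.20 to 9.49. In GL2 siRNA cells it was 9.21, 9.23 and 8.33 with MLN4924 and 6.51, 6.55 and 6.51 with daunorubicin, with DMSO at 9.07 to 9.27. With daunorubicin the list thus lay below its DMSO range in GL2 cells and not in p53 siRNA cells. Of the 50, 39 had a called interaction, each more negative in p53 siRNA cells (40 without array 1, 44 without the 3 doubted arrays, 41 at the deposited scaling). The same held for 31 of 38 mitotic genes (30 without array 1, 33 without the 3 doubted arrays, 32 at the deposited scaling) and for 9 of 23 repair genes (9, 13 and 14 under these settings). CDC45, part of the replicative helicase, had 7.94, 7.72 and 7.99 with MLN4924 and 7.42, 7.34 and 7.28 with daunorubicin in p53 siRNA cells. In GL2 cells it had 7.38, 7.53 and 6.20 with MLN4924 and 0.92, 1.04 and 0.77 with daunorubicin, and the interaction was -5.59 ± 0.33 (adjusted p 1.1e-12). GINS2, E2F8 and RMI2 followed at -4.76, -4.74 and -3.90. None of these 4 genes was called between the drugs in p53 siRNA cells with all arrays, while GINS2 was called without daunorubicin array 1 (0.91).

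**Figure D5:**
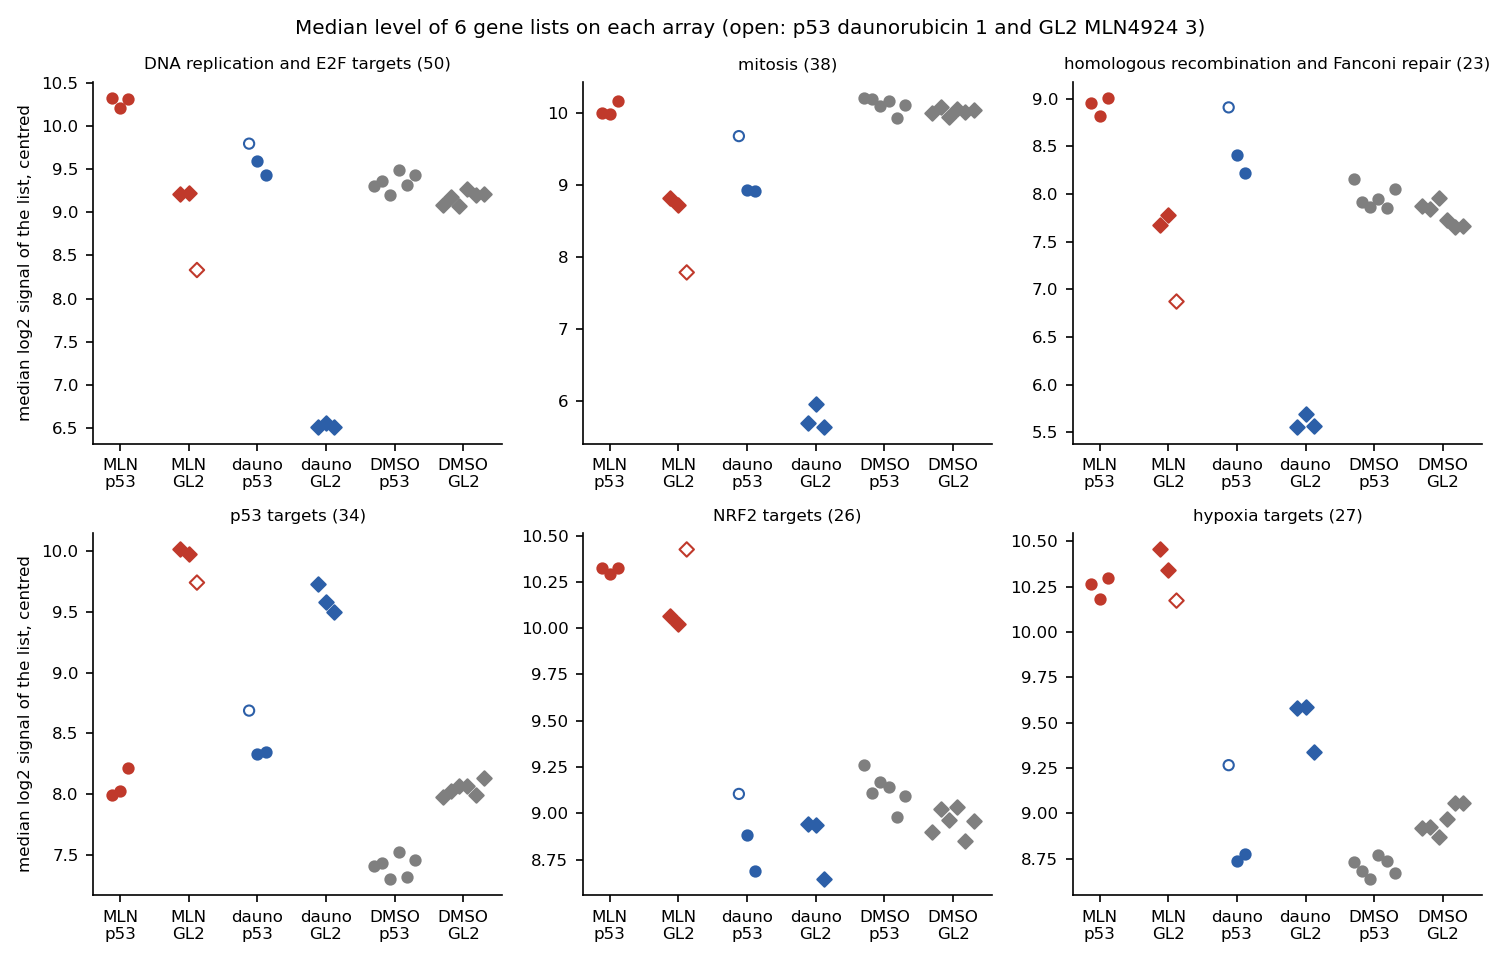
Median centred log2 signal of 6 gene lists on each array, by drug, with p53 siRNA (circles) left of GL2 siRNA (diamonds). With daunorubicin the replication list lies at 9.43 to 9.80 in p53 siRNA cells and at 6.51 to 6.55 in GL2 siRNA cells.

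Targets of p53 differed between the siRNAs as well, against 3.98% more positive and 4.06% more negative interactions among all genes. CDKN1A differed between the drugs by -2.40 in p53 siRNA cells and by -0.19 in GL2 cells, an interaction of -2.21 ± 0.24 (adjusted p 2.2e-07), and DDB2 by -2.19 and -0.04. GDF15 turned round, at 1.58 in GL2 cells, where it had 12.49, 12.50 and 12.24 with MLN4924 and 11.07, 10.83 and 10.61 with daunorubicin. Of the 34 p53 targets 1 had a more positive and 9 a more negative interaction (1 and 8 without array 1, 1 and 9 without the 3 doubted arrays, 0 and 11 at the deposited scaling). Histones, of which 26 of 37 were dim on the p53 siRNA arrays compared, had interactions opposite to the other cycle genes. In p53 siRNA cells 14 of 37 were more positive and 0 more negative. These counts were 13 and 0 without array 1, 14 and 0 without the 3 doubted arrays and 13 and 0 at the deposited scaling. The drug difference in GL2 cells was called higher with MLN4924 for 1 histone and lower for 11 (19.3% and 9.89% of all genes). H2BC12 had 10.84, 10.90 and 11.22 with MLN4924 and 11.03, 10.92 and 10.93 with daunorubicin in GL2 cells, so that the lower level with daunorubicin was seen in p53 siRNA cells, with an interaction of 2.05 ± 0.18 (adjusted p 3.4e-09). The dim histone H2AC14 had the largest positive interaction of the named genes, 4.63.

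Stress lists held called interactions too, against 3.98% more positive and 4.06% more negative among all genes. In GL2 cells 19.3% of all genes were called higher with MLN4924 than with daunorubicin and 9.89% lower. Of 26 NRF2 targets 16 rose and 0 fell in GL2 cells (16 and 1 without the 3 doubted arrays, 11 and 1 at the deposited scaling). Their interaction was called more positive for 7 and more negative for 0, with 8 and 0 without array 1 or without the 3 doubted arrays and 4 and 0 at the deposited scaling. Of 27 hypoxia targets 13 rose and 3 fell in GL2 cells (15 and 3 without the 3 doubted arrays, 8 and 4 at the deposited scaling), and 8 had a more positive interaction (11 without array 1, 12 without the 3 doubted arrays, 6 at the deposited scaling). ALDOC and BNIP3 were among them, at 1.17 and 1.12, and daunorubicin arrays of GL2 cells had ALDOC at 9.58, 9.59 and 9.40, above DMSO (8.82 to 9.21). Ribosome biogenesis rose in 26 of 28 cases in GL2 cells (26 without the 3 doubted arrays, 21 at the deposited scaling), with 1 called interaction (1 without array 1 or the 3 doubted arrays, 3 at the deposited scaling). ATF4 targets had 1 more positive and 7 more negative, or 0 and 6 without array 1, 0 and 10 without the 3 doubted arrays and 0 and 11 at the deposited scaling. CHAC1 had -1.74, and its GL2 levels were 8.84, 8.32 and 7.64 with MLN4924 and 5.45, 4.78 and 3.72 with daunorubicin.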

How the data were processed

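RNA of A375 cells was measured on 42 arrays. The deposited table holds signal intensity on a linear scale for 54675 probe sets, for which the submitters' processing notes name Affymetrix Expression Console. Each array has a mean of 150.02 after trimming 2% at each end, and no detection calls were used. Values of 0 (147) were set to 0.1, the lowest positive signal, and log2 was taken from the deposited intensity. Probe sets with 1 symbol in GEO's platform annotation gave 19775 genes, each by its brightest probe set. Arrays were centred on their median gene. "Dim" means a mean below 31.9, the median of all signals.

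Differences were contrasts of 1 limma 3.58.1 fit (R 4.3.3) of 14 groups of 3, with DMSO as the mean of both sets. On simulated data for the direct comparison with 19775 genes, 17.9%, 47.8% and 78.8% of changes of 1.5-fold, 2-fold and 4-fold were recovered, and 6 of 19575 unchanged genes were called. The simulation gave each gene 1 spread shared by all groups. Real daunorubicin arrays deviated more from the others of their group (median 0.587, 0.353 and 0.382) than MLN4924 arrays (0.215, 0.229 and 0.1865). The simulated rates thus do not measure the error of this comparison. Arrays with the same number did not deviate together (correlations -0.05, -0.02 and 0.01), so the main fit has no block.

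The members and the 25 gene lists (595 of 653 genes measured), motifs and tests were chosen with earlier results of these data known. Genes named are the 12 largest differences each way among genes whose arrays lay apart and that were called without daunorubicin array 1, up to 5 of each list by moderated t, all members of short lists, 4 interactions each way, and 32 set genes. Fewer are printed for length. Alternatives comprised other scalings, probe set means, a pseudocount of 16, filters, smaller fits, array weights, replicate blocks, DMSO sets subtracted or used alone, thresholds and leaving out arrays. Promoters are from RefSeq. Further tables were made with pandas 2.3.3 in Python 3.11.15.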

Additional observations from a re-analysis of the deposited data

Results flagged for a closer look

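For 52 of the 127 genes named in the text the MLN4924 minus daunorubicin difference changed between p53 siRNA and GL2 siRNA cells by the test of the interaction itself, 27 more positive and 25 more negative in p53 siRNA cells. Among all genes 8.04% had such a call. H2AC14, PLEC, H2BC9 and EHBP1L1, and CDC45, GINS2, E2F8 and RMI2, were named for the size of a called interaction (4 each way). Their calls were thus fixed by the choice of genes. Many of the other named genes were chosen by their drug difference in p53 siRNA cells, which is 1 part of the interaction. The share among the named genes is thus not comparable with that of all genes. Values are p53 siRNA minus GL2 siRNA on the log2 scale. Where leaving out daunorubicin array 1 or all 3 doubted arrays ended a call, the values without them follow at the end.

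More negative were the replication and division genes CDC45 (-5.59), GINS2 (-4.76), E2F8 (-4.74), RMI2 (-3.90), CDT1 (-2.50), TOP2A (-2.36), CDC6 (-2.28), CCNA2 (-1.72), CCNE1 (-1.36), CDC20 (-1.32), UBE2C (-1.185), MCM3 (-1.02) and SLBP (-0.89). The p53 targets GDF15 (-2.90), CDKN1A (-2.21), DDB2 (-2.15), TP53INP1 (-1.99), ACTA2 (-1.52) and FAS (-1.398) were more negative too, as were SSUH2 (-2.73), CCDC69 (-2.60), IL6 (-2.10), CHAC1 (-1.74), IFIT3 (-0.73) and ATF3 (-0.69).

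More positive were the histones H2AC14 (4.63), H2BC9 (3.56), H3C3 (2.77), H2BC12 (2.05) and H2BC6 (1.84). Stress genes with a more positive difference were OSGIN1 (2.42), TRIM16 (1.32), ALDOC (1.17), BNIP3 (1.12), ADM (0.74), AKR1B10 (0.63) and DDIT4 (0.59), and of the protein quality genes HSP90B1 (0.98), PSMD11 (0.68) and PSMB7 (0.62). Others were PLEC (3.74), EHBP1L1 (3.33), AKT1S1 (3.12), BMP4 (2.45), NFKBIA (2.24), ISG20 (1.397), S100B (1.18), ERBB3 (1.11), BCL2L11 (0.82), FADD (0.70), TP53I3 (0.62) and TNIP1 (0.59).

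Without daunorubicin array 1 the calls for TP53I3 (0.48), ATF3 (-0.58), DDIT4 (0.37), HSP90B1 (0.65), IFIT3 (-0.52) and TNIP1 (0.55) were lost. PLEC fell to 1.69, AKT1S1 to 1.79 and EHBP1L1 to 2.12 without it. Without all 3 doubted arrays AKT1S1 (1.70), H3C3 (2.56) and BCL2L11 (0.83) were no longer called, while ATF3 was (-0.74).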

How the results depend on the processing

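Over the alternatives, the count of genes called between MLN4924 and daunorubicin in p53 siRNA cells stayed within 1.5 times of 5695 except in 3. A fit of these 6 arrays alone called 1675 (1621 of them shared), a 2-fold minimum 2567, and the replicate block in the fit of the 6 arrays 0 by limma, with 4750 genes at an unadjusted p under 0.05. That block spends 2 of 4 residual degrees of freedom on array numbers that do not pair the samples. In the fit of all arrays the replicate block gave 5674. Leaving out 1 array at a time gave 5245 to 6002 in p53 siRNA cells, 5236 to 6080 in GL2 siRNA cells, 4602 to 5071 for MLN4924 minus DMSO, 2139 to 3372 for daunorubicin minus DMSO and 1260 to 2429 for the interaction. The other departures by over 1.5 times were at a 2-fold minimum (MLN4924 minus DMSO 2052, daunorubicin minus DMSO 1129, GL2 siRNA 3041, interaction 892) and in fits of only the groups compared (daunorubicin minus DMSO 1192, interaction 119). Array weights, which gave daunorubicin array 1 0.0699, raised the interaction to 2629, and an adjusted p under 0.01 left 808. The DMSO sets differed in 57 genes, or in 27 with probe sets averaged, 2 in a fit of these groups, 251 with array weights, 24 at a 2-fold minimum, 21 at an adjusted p under 0.01 and 18 to 44 with 1 array left out.

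Of the 127 genes, 25 lost their call in the fit of the 6 arrays alone, 19 at the deposited scaling, 34 at the deposited scaling without daunorubicin array 1, 22 with quantile normalization and 6 with the DMSO sets subtracted. Sign changes occurred for uncalled ones. At the deposited scaling MDM2 was -0.40, UBA3 -0.16, CDT1 -0.0769, CCNE1 -0.20 and TOP2B -0.18, and without daunorubicin array 1 as well MDM2 was -0.42, CCNE1 -0.25 and CDC45 -0.0603. Quantile normalization gave MDM2 -0.45, UBA3 -0.31, CDT1 -0.12 and TOP2B -0.24. MDM2 was -0.0371 with probe sets averaged and -0.13 to 0.236 with 1 array left out. DDIT3 lay at -0.2804 to 0.0072 with 1 array left out, at 0.0072 without the 3 doubted arrays and at 0.0012 with array weights. The cause of these changes was not tested.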

Other observations

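Of 24 genes of sterol and fatty acid synthesis 7 were called higher with MLN4924 than with daunorubicin in p53 siRNA cells and 0 lower, or 6 and 0 without daunorubicin array 1, and at the deposited scaling 2 higher and 5 lower. The share higher, 29.2%, compares with 20.2% of all genes. At the deposited scaling 5.44% of all genes were higher and 21.9% lower. Relative to DMSO, 1 sterol gene was higher and 3 lower with MLN4924 (17.9% and 7.7% of all genes). At the deposited scaling these counts were 0 and 9 (5.38% and 17.6% of all genes). With daunorubicin 0 were higher and 7 lower (6.55% and 7.5% of all genes). These counts were 0 and 8 without array 1 and 0 and 6 at the deposited scaling.

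Markers of cells that the cultures should lack were in part dim. By the mean of the 6 arrays, 8 of 12 epithelial, 6 of 12 fibroblast and 6 of 10 leukocyte markers were so. Of 12 epithelial markers 1 was called higher and 2 lower (8.33% and 16.7%, against 20.2% and 8.58% of all genes). Without daunorubicin array 1 these counts were 1 and 4, and at the deposited scaling 0 and 4. The summed signal of the list was 4121 to 4690 with MLN4924 and 2368 to 2634 with daunorubicin. KRT18, a keratin found in many cultured lines, was 1.91-fold higher with MLN4924 (11.96, 11.89 and 12.11, against 11.21, 11.04 and 10.92 with daunorubicin). KRT18 was not called at the deposited scaling. EPCAM differed by -1.43, at 4.26, 4.64 and 4.54 with MLN4924 and 5.76, 6.0 and 5.96 with daunorubicin. Of 12 fibroblast markers 0 rose and 3 fell (0 and 0 without daunorubicin array 1, 0 and 3 at the deposited scaling), with sums of 624 to 666 and of 614 to 756. The share lower was 25%, against 8.58% of all genes. COL1A1, DCN, LUM and POSTN exceeded the median signal of the table on every array of both drugs. Of 10 leukocyte markers 1 rose and 1 fell (0 and 1 without daunorubicin array 1, 0 and 2 at the deposited scaling), with sums of 2503 to 2758 with MLN4924 and of 1529 to 2385 with daunorubicin. That was 10% each way, against 20.2% and 8.58% of all genes. Bright members were HLA-DRA, with means of 11.198 with MLN4924 and 10.432 with daunorubicin, and LYZ, with 6.384 and 8.775. Their part in the results was not tested.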
